A study of Mus musculus with 24 samples.

Results

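The 25 genes described here make, package, clear and sense gamma-aminobutyric acid (GABA), the main inhibitory transmitter of the hypothalamus. They were chosen by name for their function: 14 subunits of the ionotropic GABA-A family (Gabra2 to Gabra6, Gabrb1, Gabrb2, Gabrg1, Gabrg3, Gabrd, Gabre, Gabrq, Gabrr1 and Gabrr2), both subunits of the metabotropic GABA-B receptor (Gabbr1 and Gabbr2), and 9 genes of synthesis, transport, breakdown and postsynaptic anchoring. Of the 25, 24 were listed among 18777 gene symbols and 21 had a mean of at least 1 FPKM (fragments counted relative to transcript length and to all mapped fragments) over the libraries, as did 13806 genes in all. Gabrr1 has no value. Hypothalami of C57BL6 mice aged 15 months were the source of the total RNA that was sequenced. The mice had eaten freely from 12 weeks of age 1 of 4 diets of equal energy and macronutrient content, which held branched-chain amino acids (BCAA) at 20, 50, 100 or 200% of the standard AIN93G content. The groups are called BCAA20, BCAA50, BCAA100 and BCAA200, and BCAA100 is the control diet, named chow in the labels. Each diet had 3 females and 3 males, 1 animal per library, which gives 24 libraries in 8 groups.

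GABA is made from glutamate by 2 glutamate decarboxylases, Gad1 and Gad2, and loaded into vesicles by the transporter Slc32a1. After release it opens chloride channels of the GABA-A family or acts on the G protein coupled GABA-B receptor. It is taken up by membrane transporters and broken down by Abat and Aldh5a1, which return its carbon to the citric acid cycle. In the hypothalamus GABA neurons are numerous and act on feeding, sleep and hormone release. BCAA donate nitrogen to brain glutamate, from which GABA is made, which connects the diets with the genes described here.

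All BCAA100 libraries were run in lane 2 and the 18 libraries of the other diets in lane 1, so that diet and lane cannot be told apart in any comparison with BCAA100. Slc17a7, a vesicular glutamate transporter of cortical and hippocampal neurons, stood at 106 to 250 FPKM in 21 libraries. It was at 6.23 FPKM in BCAA50 female 1, 3.99 FPKM in BCAA100 male 5 and 12.6 FPKM in BCAA100 male 6. In BCAA100 male 6 several markers of hypothalamic nuclei were also near 0 (Hcrt 0, Pmch 1.92, Avp 0.658 and Oxt 0.355 FPKM), against the tissue on its label. Not all were: Cartpt stood at 21.9 FPKM there. The sum of 17 hypothalamic markers was 31.8 FPKM, the lowest of all libraries. In BCAA50 female 1 and BCAA100 male 5 Pmch was at 548 and 298 FPKM. The thalamic marker Prkcd stood at 89.2 FPKM in BCAA100 male 6, 57.2 FPKM in BCAA50 female 1 and 4.07 FPKM in BCAA100 male 5. The sum of 10 thalamus markers was 343, 339 and 187 FPKM in that order, against a median of 97.2 FPKM over all libraries. The library labelled BCAA20 male 6 had Xist at 154 FPKM and Ddx3y at 0, against its label. These 4 are called the doubted libraries, and results are also given without them. In bulk tissue, fewer cells of a type and less RNA per cell cannot be told apart. FPKM carry no read depth, which is unknown here.

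On the FPKM scale, which is per transcript length, the genes spanned from Gabbr1 at a mean of 149 FPKM to Gabra6 at 0.155 FPKM. Gad1 (127), Slc6a11 (91.8), Abat (90.0) and Gad2 (61.9) followed Gabbr1 in mean FPKM, then Nlgn2 (50.9), Gabra3 (43.4), Slc32a1 (42.9) and Gabbr2 (38.7). A middle tier between 19.0 and 12.7 mean FPKM held Gabra5, Gabrb2, Gphn, Gabrb1, Gabrd, Gabra2, Aldh5a1 and Gabra4. Gabrq (9.45), Gabrg1 (6.19), Slc6a13 (2.91) and Gabre (1.26) were the lowest 4 to pass the filter. Several neighbours in this order did not differ beyond their spread over libraries: Slc6a11 was above Abat in 7 of 24 libraries, Gabra5 above Gabrb2 in 10, Gabrd above Gabra2 in 11, and Gabra3 above Slc32a1 in 14. Abat was above Gad2 in all 24.

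**Figure D1:**
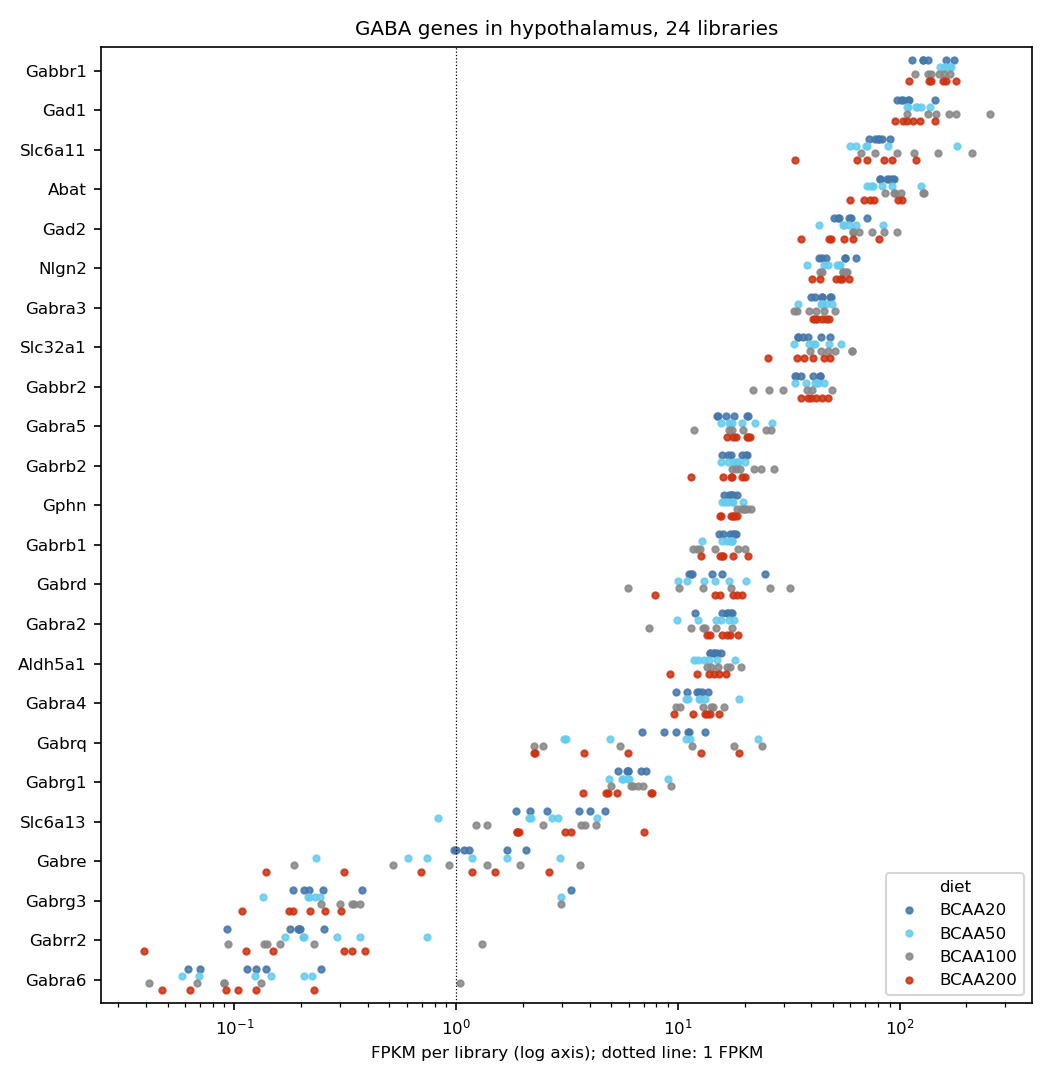
FPKM of the 24 listed GABA genes in each of the 24 libraries on a log axis, 1 point per library and colours by diet, in order of mean FPKM; the dotted line marks 1 FPKM. The 4 diets overlap in every gene, and Gabrq and Gabre spread far more than Gphn within each diet.

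The 3 genes under the filter were low in most libraries and stood out in single ones. Gabrg3, a gamma subunit, had a mean of 0.599 FPKM. It was at 3.31 FPKM in BCAA20 male 5, 2.96 FPKM in BCAA50 female 1 and 2.99 FPKM in BCAA100 female 1, and at most 0.376 FPKM in the other 21 libraries. Gabrr2, a rho subunit best known from retina, averaged 0.270 FPKM and reached 1.30 FPKM in BCAA100 male 6. Gabra6, the alpha subunit of cerebellar granule cells, averaged 0.155 FPKM and reached 1.04 FPKM in BCAA100 female 1.

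The within-group spread also ordered the genes. Gphn, gephyrin, which anchors GABA-A and glycine receptors under the synapse, had an SD of 0.07 on the log2(FPKM + 0.5) scale within diet and sex groups. Only 0.456% of the 13806 genes had an SD as small or smaller. At the other end stood Gabrq and Gabre, the theta and epsilon subunits, which are enriched in hypothalamus and in monoamine nuclei. Their SD of 1.11 and 0.80 put them at percentiles 98.8 and 96.0 among all genes. Gabrd, the delta subunit of extrasynaptic receptors, had an SD of 0.61 and Slc6a13, a GABA transporter of meninges and vessels in brain, 0.59. The astrocytic GABA transporter Slc6a11 had 0.50. The other 15 genes lay between 0.15 and 0.29.

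Several of the genes lie side by side on GRCm38 (GENCODE M21). Gabrg1, Gabra2, Gabra4 and Gabrb1 share 1.4 Mb of chromosome 5 (70751047 to 72149037), Gabre, Gabra3 and Gabrq share 0.59 Mb of chromosome X (72255999 to 72842602), and Gabrb2 with Gabra6 and Gabrg3 with Gabra5 are pairs on chromosomes 11 and 7. Gabra4 and Gabrb1 are on opposite strands and overlap by 196 bases at their 5' ends. Gad1 overlaps the antisense gene Gad1os, Gabra5 overlaps Gm9962, and Aldh5a1 overlaps 9330162012Rik, all on opposite strands and all listed. The library kit keeps strand, but no source used here says whether strand entered the counting, and values from these overlaps are uncertain.

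The windows upstream of the start sites are shown for 2 sets of genes whose levels were correlated across libraries (Gad1 and Gad2; Gabrq and Gabre), and for Slc6a11, the gene with the strongest relation to Slc17a7. RefSeq windows on GRCm38.p6 were found for 23 of the 25 genes, and each is cut back to the bases before any exon annotated in GENCODE M21. They are at chr2:70561879-70562041 (plus strand, Gad1), chr2:22622077-22622204 (plus, Gad2), chrX:72824928-72825177 (plus, Gabrq), chrX:72274804-72274971 (minus, Gabre) and chr6:114130991-114131240 (plus, Slc6a11). The windows of Slc32a1 and Aldh5a1, genes of other correlated pairs, kept 20 and 0 bases after this cut and are not shown. Capitals mark matches on either strand to the TATA box TATAAA, the CCAAT box CCAAT or the GC box GGGCGG.
Gad1: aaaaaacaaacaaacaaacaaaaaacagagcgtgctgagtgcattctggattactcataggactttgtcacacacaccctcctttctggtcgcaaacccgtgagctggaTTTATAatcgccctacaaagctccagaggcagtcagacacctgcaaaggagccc
Gad2: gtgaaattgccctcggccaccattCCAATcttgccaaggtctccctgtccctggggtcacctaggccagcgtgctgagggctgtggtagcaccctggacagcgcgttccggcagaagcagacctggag
Gabrq: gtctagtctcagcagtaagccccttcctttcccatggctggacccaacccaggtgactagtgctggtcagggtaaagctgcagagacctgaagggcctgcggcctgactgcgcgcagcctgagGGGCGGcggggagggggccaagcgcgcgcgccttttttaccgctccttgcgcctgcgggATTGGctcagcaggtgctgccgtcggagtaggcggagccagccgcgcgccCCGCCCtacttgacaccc
Gabre: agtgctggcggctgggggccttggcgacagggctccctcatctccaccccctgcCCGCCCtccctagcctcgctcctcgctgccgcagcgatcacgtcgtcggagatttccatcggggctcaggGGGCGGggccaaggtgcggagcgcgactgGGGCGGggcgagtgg
Slc6a11: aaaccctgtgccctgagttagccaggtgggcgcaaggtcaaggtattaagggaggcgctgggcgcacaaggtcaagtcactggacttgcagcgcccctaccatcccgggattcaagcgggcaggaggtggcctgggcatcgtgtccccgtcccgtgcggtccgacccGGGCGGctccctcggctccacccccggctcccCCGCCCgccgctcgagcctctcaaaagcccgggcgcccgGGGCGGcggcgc
The homeodomain core TAATTA and the cyclic AMP element TGACGTCA were also searched and were in none of these 5. The GC box was found 3 times each in the Gabre and Slc6a11 windows and 2 times in that of Gabrq, and it is in 32.7% of all 32851 windows of 250 bases and in 19.2% of windows cut to 168 bases. The Gad1 window held 1 TATA box, which 7.78% of windows cut to 163 bases hold, and the Gad2 window 1 CCAAT box, in 17.2% of windows cut to 128 bases. The windows of Gad1 and Gad2 shared none of the 5 motifs. After the cut these 2 windows end at 70562041 and 22622204, short of the RefSeq starts at 70562129 and 22622327. The bases next to the start are thus not shown. The Gad1 window also lies inside the Gad1 gene of GENCODE M21, which begins at 70553072. Those of Gabrq and Gabre were both rich in G and C, at 67.2 and 73.2%, against a median of 52.4% over all windows of 250 bases. A match is a description of letters and not a bound site.

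Among the diets of lane 1, no difference in any of the 21 genes passed the test. In BCAA200 against BCAA20, the largest contrast in BCAA content, no GABA gene was called (limma, Benjamini-Hochberg adjusted p under 0.05 over all genes, two-sided) among 0% of all 13806 genes called, and none was at an unadjusted p under 0.05, where 2.89% of all genes were. Of the 21 differences, 15 were below 0, with a median of -0.05 on the log2(FPKM + 0.5) scale, and the median over all genes was -0.01. Gad1 stood at 95.1 to 145 FPKM (median 111) on BCAA200 and at 97.7 to 144 FPKM (median 106) on BCAA20. The 2 ranges nearly coincide, and the log2 difference was 0.05 with a 95% interval of -0.26 to 0.36. Gad2 had 36.0 to 81.1 FPKM on BCAA200 (median 52.6) and 50.7 to 71.0 FPKM on BCAA20 (median 56.1), and Slc32a1 had 25.5 to 48.7 FPKM (median 38.9) on BCAA200 and 34.7 to 48.5 FPKM (median 37.4) on BCAA20. In all 3 genes the BCAA200 libraries spread around the BCAA20 libraries on both sides. For Gphn, the least variable gene, the interval of the difference ran from -0.13 to 0.10, which is the narrowest bound on a diet difference among the 21.

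The gene with the largest difference in this comparison was also the most variable. Gabrq stood at 2.25 to 18.9 FPKM on BCAA200, with a median of 4.86, and at 6.87 to 13.2 FPKM on BCAA20, with a median of 10.5. Of the 6 BCAA200 libraries, 4 lay below the lowest BCAA20 library and 1 above the highest, so that the ranges overlap. The log2 difference was -0.77 (SE 0.60, unadjusted p = 0.213, limma adjusted p = 1). It ran from -1.05 without BCAA200 male 4 to -0.34 without BCAA200 male 6. Abat, the GABA transaminase, had a log2 difference of -0.16 (SE 0.12) and Gabrg1, a gamma subunit, of -0.16 (SE 0.14), both with a limma adjusted p of 1. Without BCAA200 male 6 the difference of Gabrg1 was -0.06.

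The intermediate diet gave the same picture. In BCAA200 against BCAA50, none of the 21 genes was called (0% of all genes) and none was at an unadjusted p under 0.05 (2.52% of all genes). In BCAA50 against BCAA20, none was called (0% of all genes) and 1 of 21 was at an unadjusted p under 0.05 (2.68% of all genes). This was Gabbr1, the ligand-binding subunit of the GABA-B receptor, which had 153 to 171 FPKM on BCAA50 (median 165) and 114 to 176 FPKM on BCAA20 (median 130). The BCAA50 libraries lay inside the BCAA20 range, and the log2 difference was 0.24 (SE 0.11, unadjusted p = 0.0368, limma adjusted p = 1). Without the doubted libraries its unadjusted p was 0.0761. The trend per doubling of BCAA content over the lane 1 diets called none of the 21 (0% of all genes) and had none at an unadjusted p under 0.05 (2.83% of all genes). Its slopes ran from -0.23 for Gabrq to 0.03 for Gabra5.

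**Figure D2:**
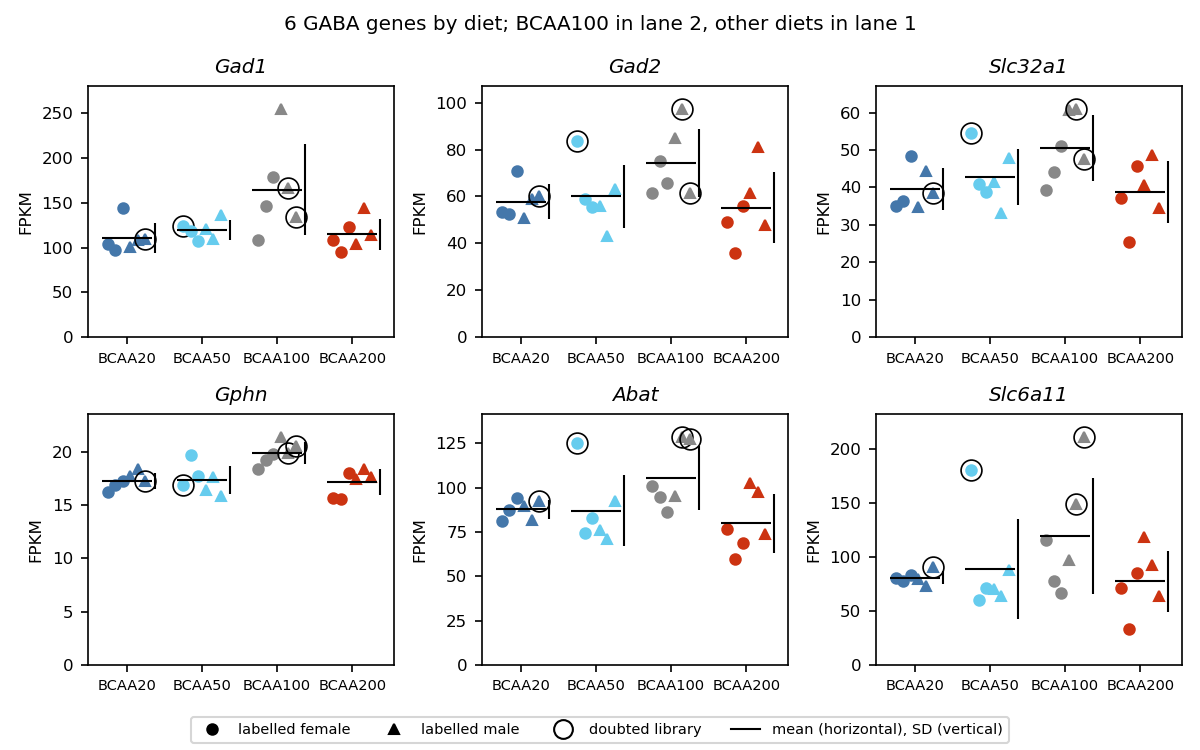
FPKM of 6 GABA genes in each library by diet, low to high BCAA content, with circles for labelled females, triangles for labelled males, horizontal lines for means, vertical lines for SD (n = 6) and rings around the 4 doubted libraries. The BCAA100 mean is the highest in each panel, its Gphn libraries at 18.4 to 21.4 FPKM against 15.5 to 18.4 FPKM on BCAA200, and 3 of the ringed libraries are the highest for Slc6a11 and Abat.

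Against the control diet the mean levels of the genes of GABA synthesis, packaging and breakdown were lower on BCAA200, and none of these differences passed the threshold after adjustment. In BCAA200 against BCAA100, 0.0145% of all genes were called and none of the 21. At an unadjusted p under 0.05 were 9 of 21 (42.9%), where 11.7% of all genes were: 8 lower (7.52% of all genes) and 1 higher (4.2% of all genes). The median of the 21 differences was -0.21 on the log2 scale, and that of all genes -0.05.

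Gphn had the lowest p. It stood at 15.7, 15.5 and 18.0 FPKM in BCAA200 females and 17.4, 18.4 and 17.7 FPKM in BCAA200 males, against 18.4, 19.2 and 19.8 FPKM in BCAA100 females and 21.4, 19.9 and 20.5 FPKM in BCAA100 males. The lowest BCAA100 library, at 18.397 FPKM, lay just under the highest BCAA200 library, at 18.414 FPKM, and the groups otherwise do not overlap. The log2 difference was -0.21 (SE 0.05, unadjusted p = 0.000982, limma adjusted p = 0.172). Gphn was also the lowest-p gene of the 21 on the other lane 1 diets against BCAA100, at -0.19 for BCAA50 and -0.19 for BCAA20, comparisons that share the BCAA100 libraries. With Slc17a7 as a covariate the BCAA200 difference was -0.25, and without the doubted libraries -0.24.

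Gad1, which makes most of the GABA of the cell body, stood at 95.1 to 145 FPKM (median 111) on BCAA200 and at 108 to 255 FPKM (median 156) on BCAA100. The BCAA100 values were 108, 146 and 179 FPKM in females and 255, 166 and 134 FPKM in males, and 4 of the 6 lay above every BCAA200 library. The log2 difference was -0.48 (SE 0.15, unadjusted p = 0.00446, limma adjusted p = 0.25). It was -0.73 without the doubted libraries (unadjusted p = 0.00038) and -0.35 without BCAA100 male 4, the 255 FPKM library (unadjusted p = 0.0166). Gad2, the synaptic glutamate decarboxylase, had 36.0 to 81.1 FPKM (median 52.6) on BCAA200 and 61.5 to 97.4 FPKM (median 70.3) on BCAA100, a log2 difference of -0.45 (SE 0.15, unadjusted p = 0.00935). Slc32a1 had 25.5 to 48.7 FPKM (median 38.9) on BCAA200 and 39.3 to 61.0 FPKM (median 49.2) on BCAA100, a log2 difference of -0.39 (SE 0.14, unadjusted p = 0.0135). In both genes the groups overlap, with 5 of 6 BCAA200 libraries of Gad2 below every BCAA100 library. With Slc17a7 as a covariate the differences were -0.28 and -0.27, at unadjusted p of 0.0983 and 0.103.

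In the genes of uptake and breakdown the doubted libraries were among the highest. Slc6a11 stood at 33.6 to 118 FPKM (median 78.1) on BCAA200 and 67.1 to 212 FPKM (median 107) on BCAA100, of which the 2 highest were the low-Slc17a7 libraries male 6 at 212 FPKM and male 5 at 149 FPKM. The log2 difference was -0.61 (SE 0.27, unadjusted p = 0.0344), and -0.33 without the doubted libraries (unadjusted p = 0.223). With Slc17a7 as a covariate it was -0.12 (unadjusted p = 0.549). Abat had 59.5 to 102 FPKM (median 75.1) on BCAA200 and 86.0 to 129 FPKM (median 98.1) on BCAA100, with the same 2 libraries highest at 129 and 127 FPKM. Its log2 difference was -0.41 (SE 0.12, unadjusted p = 0.00338), -0.27 without the doubted libraries (unadjusted p = 0.0357) and -0.18 with Slc17a7 as a covariate (unadjusted p = 0.0503). Aldh5a1, succinic semialdehyde dehydrogenase, which takes the next step after Abat, had a log2 difference of -0.24 (unadjusted p = 0.0361). For Aldh5a1 it was -0.20 without the doubted libraries (unadjusted p = 0.145), -0.11 with Slc17a7 as a covariate (unadjusted p = 0.325) and -0.14 without BCAA200 female 2.

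Among receptor subunits, Gabrb2 had a log2 difference of -0.33 and Gabra2 of 0.33 in BCAA200 against BCAA100 (SE 0.12 and 0.14, unadjusted p = 0.0133 and 0.0241, limma adjusted p = 0.321 and 0.356). Gabra2, an alpha subunit of benzodiazepine-sensitive receptors, had 13.5 to 18.7 FPKM on BCAA200 and 7.43 to 17.5 FPKM on BCAA100, with overlap. Without the doubted libraries Gabra2 had 0.18 (unadjusted p = 0.206) and Gabrb2 -0.26 (unadjusted p = 0.0737). Gabra2 had 0.22 without BCAA100 male 6, and Gabrb2 -0.22 without BCAA200 female 2. The 9 genes became 3 with Slc17a7 as a covariate and 4 without BCAA200 female 2. The share of all genes at an unadjusted p under 0.05 was not counted in these 2 fits. With Slc17a7 as a covariate 0 of all genes were called after adjustment, against 2 in the main fit. That is another measure, so whether the change in these counts is particular to the GABA genes was not tested. The summed FPKM of 14 cortex and hippocampus markers ran from 651 to 1419 on BCAA200 and from 193 to 954 on BCAA100, and 7 of the 13 tested were higher on BCAA200 at an unadjusted p under 0.05. The sum of 10 thalamus markers ran from 55.6 to 163 FPKM on BCAA200 and from 85.3 to 343 FPKM on BCAA100, and that of 17 hypothalamic markers from 155 to 680 FPKM on BCAA200 and from 31.8 to 1166 FPKM on BCAA100. Oligodendrocyte and myelin markers were below 0 in 10 of 10 genes (median -0.33, sums of 767 to 1938 FPKM on BCAA200 and 1357 to 4093 FPKM on BCAA100), and meninges markers above 0 in 10 of 10 (median 0.34). Astrocyte markers were below 0 in 6 of 12, with a median of -0.01. Striatum markers were below 0 in 6 of 10, with a median of -0.22 and none at an unadjusted p under 0.05. Their sums ran from 142 to 671 FPKM (median 382) on BCAA200 and from 94.3 to 789 FPKM (median 501) on BCAA100. The highest sum was that of BCAA100 male 4, which also had the highest Gad1. No marker of these lists was at 0 in every library. Their part in the differences was not tested.

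The other diets were also set against BCAA100. In BCAA50 against BCAA100 none of the 21 was called (0% of all genes) and 3 were at an unadjusted p under 0.05 (7.65% of all genes), all lower (4.87% of all genes, and 2.77% higher): Gphn, Gad1 at -0.41 and Abat at -0.29. In BCAA20 against BCAA100 none was called (0% of all genes) and 5 were at an unadjusted p under 0.05 (7.09% of all genes). Of these, 4 were lower (4.15% of all genes), namely Gphn, Gad1 at -0.53, Slc32a1 at -0.34 and Gad2 at -0.35, and Gabra2 was higher at 0.34 (2.94% of all genes higher). With array weights the counts at an unadjusted p under 0.05 were 8 for BCAA50 and 8 for BCAA20. Leaving out single libraries moved them between 2 and 7 for BCAA50 and between 2 and 6 for BCAA20. The share of all genes at that p was not counted in these alternative fits. The 3 comparisons share the BCAA100 libraries.

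**Figure D3:**
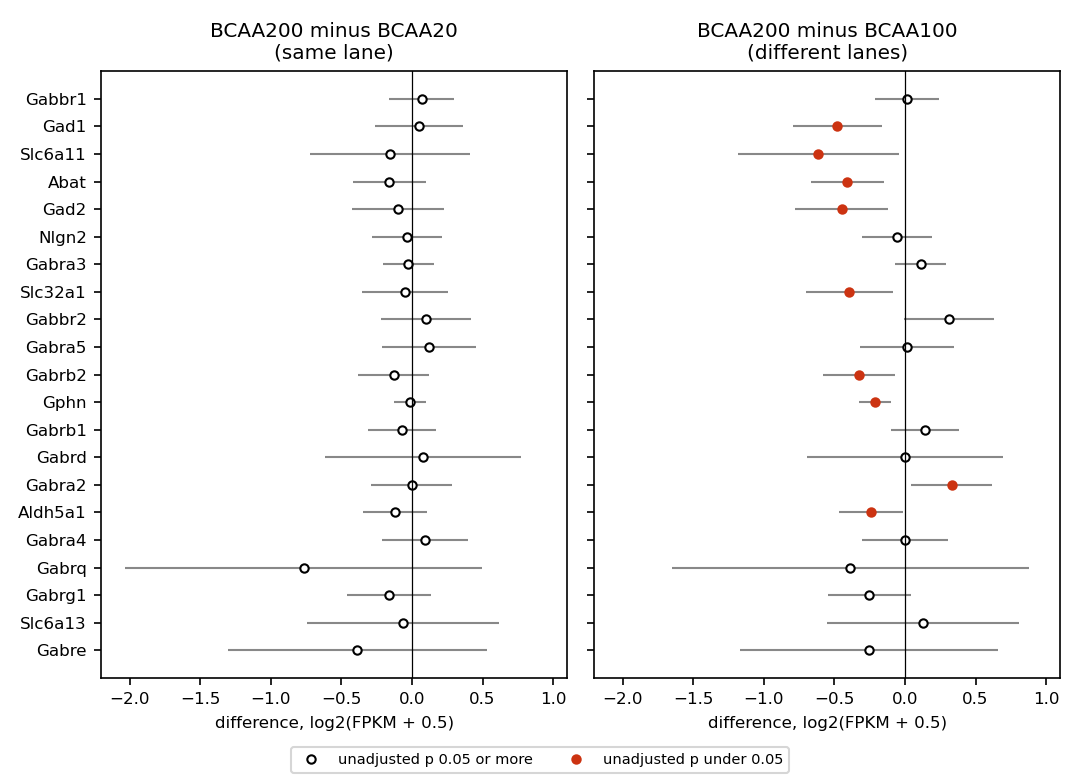
Log2 difference of the 21 GABA genes in BCAA200 minus BCAA20 (left) and BCAA200 minus BCAA100 (right), with 95% intervals; filled points have an unadjusted p under 0.05, and genes run down in order of mean FPKM. No point is filled on the left and 9 are on the right, 8 of them below 0.

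In males against females none of the 21 was called (0.0652% of all genes) and 1 was at an unadjusted p under 0.05 (4.27% of all genes). Gabra3, an alpha subunit gene on the X chromosome, had 33.5 to 49.3 FPKM in males (median 42.2) and 39.1 to 51.3 FPKM in females (median 45.1). The ranges overlap, and the log2 difference was -0.13 (SE 0.06, unadjusted p = 0.0426, limma adjusted p = 0.941). Over the alternatives it ran from -0.16 to -0.095. In the main fit BCAA20 male 6, with Xist at 154 FPKM, was counted as a male. With array weights 4 of the 21 were at an unadjusted p under 0.05. Leaving out single libraries, BCAA20 male 6 among them, moved this count between 0 and 3. The share of all genes at that p was not counted in these alternative fits. Gabrq and Gabre, also X-linked, had differences of 0.09 and 0.10 with intervals of -0.80 to 0.98 and -0.55 to 0.75. The difference between males and females in BCAA200 against BCAA20 called none (0% of all genes), with none at an unadjusted p under 0.05 (3.56% of all genes). Of the 21 interaction values, 19 were above 0, with a median of 0.24 on the log2 scale against 0.03 over all genes, and BCAA20 male 6, whose sex-linked genes go against its label, is 1 of the 12 libraries they rest on.

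The deposited table gives the BCAA intake of each animal, with no unit. Intake fell into clusters by diet, 0.38 to 0.46 on BCAA20 and 4.33 to 5.81 on BCAA200, so slopes were taken within groups. None of the 21 genes was called (0% of all genes) and 2 were at an unadjusted p under 0.05 (3.03% of all genes). Gad1 had a slope of 1.18 log2 units per doubling of intake (SE 0.39, unadjusted p = 0.00732, limma adjusted p = 1) and Gabbr2, the signalling subunit of the GABA-B receptor, of -1.05 (SE 0.42, unadjusted p = 0.022, limma adjusted p = 1). Within groups intake spanned at most 0.44 log2 units. On BCAA100 the females had intakes of 1.75, 1.91 and 2.37 beside Gad1 at 108, 146 and 179 FPKM, and the males 2.38, 2.33 and 2.00 beside 255, 166 and 134 FPKM, so that in both sexes of this diet the order of Gad1 followed that of intake. Of these 6, males 5 and 6 are doubted libraries. The summed FPKM of 10 striatum markers had the same order, at 134, 416 and 640 in the females and 789, 586 and 94.3 in the males. Of the 10 striatum markers none had a slope on intake below 0 within groups. Their median slope was 3.81, and 5 were at an unadjusted p under 0.05 with none called. The part of striatum content in the slope of Gad1 was not tested. Without the doubted libraries the slope of Gad1 was 0.94 (unadjusted p = 0.0309). Without the doubted libraries the slope of Gabbr2 was -0.59 (unadjusted p = 0.0927). In the authors' deposited table, which correlates FPKM with intake over all animals, the coefficients of the 24 listed genes ran from -0.25 for Gabrg3 to 0.11 for Gabra5, and none had a p under 0.05, where 518 of 18777 genes (2.76%) did.

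GABA genes passed the test only in the relation to Slc17a7, among the comparisons made here. Over the 21 libraries with Slc17a7 at 20 FPKM or more, and within diet and sex groups, 3 of 21 genes fell as Slc17a7 rose, and they were the astrocytic transporter Slc6a11 and the 2 enzymes of GABA breakdown, Abat and Aldh5a1. Of all 13805 genes tested, 2.39% were called, 1.13% falling and 1.26% rising, against 14.3% of the 21. At an unadjusted p under 0.05 were 11 of 21, against 18.2% of all genes, with 9 of the 11 slopes below 0.

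The slope of Slc6a11 was -0.82 log2 units per log2 unit of Slc17a7, with an SE of 0.14 and a limma adjusted p of 0.0108. The 4 libraries of the 21 with the lowest Slc17a7 were BCAA100 female 1, BCAA100 male 4, BCAA200 male 4 and BCAA200 female 3, at 106, 107, 119 and 126 FPKM, and their Slc6a11 was at 116, 97.6, 118 and 84.8 FPKM. The 3 with the highest Slc17a7 were BCAA200 female 2, BCAA200 male 6 and BCAA50 female 2, at 250, 235 and 216 FPKM, and their Slc6a11 was at 33.6, 64.2 and 59.8 FPKM. These are levels across diets, which describe the libraries and not the slope within groups, and BCAA100 male 4 is the 1 library of its group among the 21. In the 3 libraries left out for their low Slc17a7, Slc6a11 was at 181 FPKM (BCAA50 female 1), 149 FPKM (BCAA100 male 5) and 212 FPKM (BCAA100 male 6), the 3 highest of all 24. Slc6a11 passed in 20 of the 21 fits that left out 1 library, with slopes from -0.90 to -0.65, and missed the threshold without BCAA200 female 3 (limma adjusted p = 0.053). With all 24 libraries its slope was -0.28 (limma adjusted p = 0.0049).

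The slope of Abat was -0.32 (SE 0.08) with a limma adjusted p of 0.0453, and that of Aldh5a1 -0.36 (SE 0.09) with a limma adjusted p of 0.0421. Both were near the threshold: Abat passed in 4 and Aldh5a1 in 6 of the 21 fits that left out 1 library. With no filter on low values, or with array weights, Slc6a11 alone of the 21 passed. With all 24 libraries the slopes were -0.14 for Abat (limma adjusted p = 0.00226) and -0.08 for Aldh5a1 (limma adjusted p = 0.0892), in a fit that called 1773 of all genes. In the 3 low-Slc17a7 libraries Abat was at 125, 129 and 127 FPKM and Aldh5a1 at 18.1, 17.2 and 19.2 FPKM, the 3 highest of all 24 for each gene. Among the genes that did not pass, Gad2 had a slope of -0.43 (limma adjusted p = 0.103), Slc32a1 of -0.38 (0.185), Gabrg1 of -0.40 (0.0611) and Gad1 of -0.09 (0.794). Gabrq and Gabre had the steepest slopes, -1.53 and -1.07, with wide errors (SE 0.51 and 0.34) and limma adjusted p of 0.131 and 0.114. Gabra4 and Gabrd, whose products can form extrasynaptic receptors with each other, had slopes above 0 at 0.35 and 0.83 (limma adjusted p = 0.173 and 0.219). Gabrb1, which overlaps Gabra4 at its 5' end, had a slope of -0.27 (limma adjusted p = 0.293), and the difference between these neighbours was not tested.

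Markers of astrocytes, which express Slc6a11 and Abat, had slopes below 0 in 12 of 12 genes, with a median of -0.18, and 1 was called, Agt at -0.95. Oligodendrocyte and myelin markers were below 0 in 10 of 10, with a median of -0.39, and meninges markers in 9 of 10, with a median of -0.38, and none of either list was called. Over all 24 libraries the summed FPKM of the astrocyte markers ran from 971 to 1371. Hypothalamic markers had slopes below 0 in 13 of 13, with a median of -1.25 and 2 called, Cartpt at -1.39 and Otp at -1.51, while cortex and hippocampus markers had 6 of 12 called as rising. The median slope of the 21 GABA genes was -0.18 and that of all genes -0.05. The part of cell content in the slopes of Slc6a11, Abat and Aldh5a1 was not tested.

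**Figure D4:**
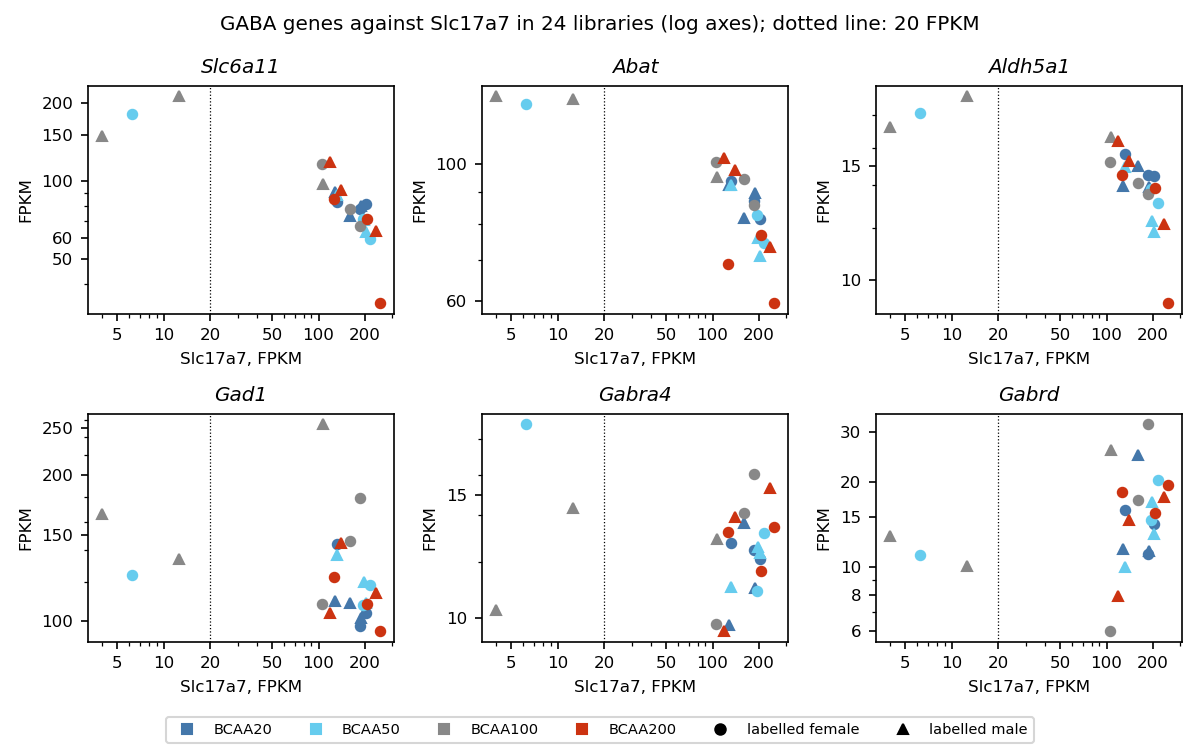
FPKM of 6 GABA genes against FPKM of Slc17a7 in the 24 libraries, both axes logarithmic, colours by diet and symbols by labelled sex; the dotted line marks 20 FPKM of Slc17a7, and the slopes use the 21 libraries to its right. Slc6a11, Abat and Aldh5a1 decline to the right, with slopes of -0.82, -0.32 and -0.36, while Gad1 shows no such order and Gabrd has a slope of 0.83.

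For genes that act together, 10 pairs were compared across the 24 libraries as deviations from their diet and sex group means, with permutations within groups and p adjusted over the 10 pairs. Of these, 5 passed. How large a share of other gene pairs would pass the same test was not counted, so the 5 cannot be set against all genes. Gad2 and Slc32a1, which make and package synaptic GABA, had a Pearson r of 0.91 and a Spearman rho of 0.88 (permutation p = 3e-05, adjusted 0.00015; for rho 8e-05, adjusted 0.0004). Gabrq and Gabre had r of 0.93 and rho of 0.90 (permutation p = 3e-05, adjusted 0.00015, and for rho 4e-05, adjusted 0.0004). Both are X-linked, and Gabra3 lies between them. Gad1 and Slc32a1 had r of 0.72 and rho of 0.77 (permutation p = 8e-05, adjusted 0.000267; for rho 0.0003, adjusted 0.00075), Gad1 and Gad2 r of 0.63 and rho of 0.69 (permutation p = 0.00554, adjusted 0.0111; for rho 0.00255, adjusted 0.0051). Abat and Aldh5a1, the consecutive enzymes of breakdown, had r of 0.81 and rho of 0.87 (permutation p = 0.00053, adjusted 0.00132; for rho 0.00027, adjusted 0.00075). Without the 2 libraries farthest from the median of the first gene, r was 0.91, 0.90, 0.80, 0.83 and 0.91 for these 5 pairs in the order given. With Slc17a7 fitted too, r was 0.89, 0.91, 0.86, 0.82 and 0.73.

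The other 5 pairs did not pass. Gabra5 and Gabrg3 were not tested as a pair, since Gabrg3 was under the filter. Gabra4 and Gabrd had r of 0.56 and rho of 0.52 (permutation p = 0.0547, adjusted 0.0911; for rho 0.0627, adjusted 0.105). Without the doubted libraries the r of this pair was 0.93 over 20 libraries (permutation p = 0.00027, adjusted 0.00102), and without the 2 libraries farthest from the Gabra4 median it was 0.76 (permutation p = 0.0295, adjusted 0.0491). With Slc17a7 fitted too it was 0.72 (permutation p = 0.00674, adjusted 0.0112). In BCAA50 female 1 Gabra4 was at 18.9 FPKM, the highest of all libraries, while Gabrd was at 11.02 FPKM. Gabra2 and Gabrg1, neighbours on chromosome 5, had r of 0.04 and rho of 0.05 (permutation p = 0.885, adjusted 0.983; for rho 0.848, adjusted 0.938), and r of 0.57 once Slc17a7 was fitted too (permutation p = 0.0191, adjusted 0.0272). Gabbr1 and Gabbr2, obligate partners in the GABA-B receptor, had r of 0.07 and rho of 0.14 (permutation p = 0.821, adjusted 0.983; for rho 0.586, adjusted 0.837). Slc6a11 and Slc6a13 had r of -0.18 and rho of -0.02 (permutation p = 0.579, adjusted 0.827; for rho 0.938, adjusted 0.938), and Gphn and Nlgn2, both postsynaptic, r of 0.00051 and rho of -0.08 (permutation p = 0.999, adjusted 0.999; for rho 0.752, adjusted 0.938).

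**Figure D5:**
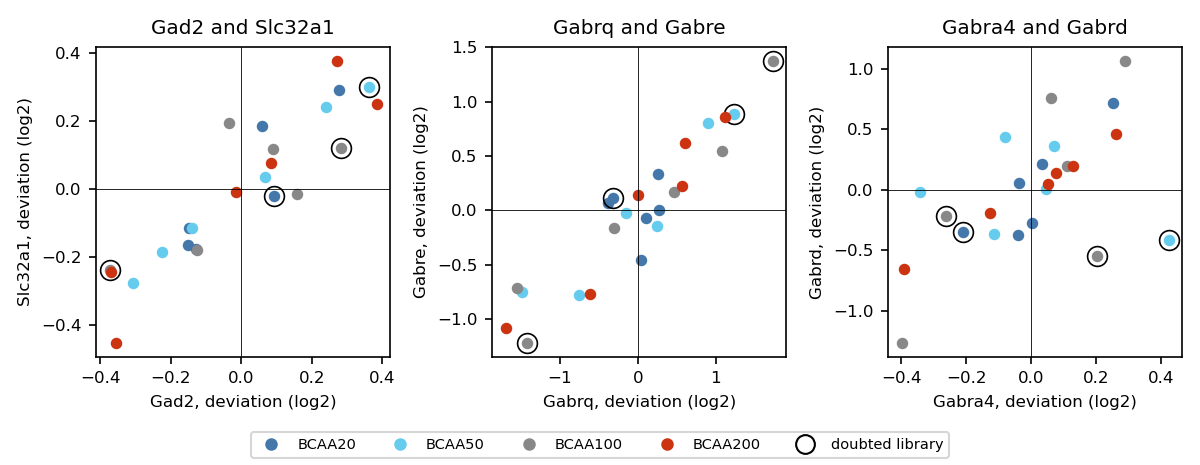
Deviation of 3 pairs of GABA genes from their diet and sex group means on the log2(FPKM + 0.5) scale, 1 point per library, colours by diet and rings for the 4 doubted libraries. Gad2 with Slc32a1 (r = 0.91) and Gabrq with Gabre (r = 0.93) follow a line, and in Gabra4 with Gabrd (r = 0.56) 2 of the ringed libraries lie to the lower right of the others.

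Genes that serve GABA signalling but are not among the 25 were read from 6 further lists. In BCAA200 against BCAA20 none of their 81 tested genes was called. Trak1, a trafficking adaptor, had a log2 difference of 0.68 (SE 0.29, unadjusted p = 0.0301), with 27.8 ± 6.5 FPKM on BCAA200 and 17.7 ± 7.02 FPKM on BCAA20 (SD, n = 6 each, limma adjusted p = 1). Clcn2, a chloride channel, had 0.36 (SE 0.13, unadjusted p = 0.0104) and Glul, glutamine synthetase, 0.27 (SE 0.12, unadjusted p = 0.04), each the lowest p of its list, in the chloride and the glutamine and glutamate lists. The lowest-p genes of the GABA-B effector, neurosteroid and forebrain GABA neuron lists were Ajap1 at 0.14, Srd5a1 at 0.14 and Calb2 at -0.36, with unadjusted p of 0.141, 0.178 and 0.202. In BCAA200 against BCAA100 none was called either. Cck, a peptide of cortical interneurons and pyramidal cells, had the largest of the named differences at 1.05 (SE 0.28, unadjusted p = 0.00155, limma adjusted p = 0.197), and it is also 1 of the cortex and hippocampus markers. Kcnj6, a potassium channel opened through GABA-B receptors, had 0.48, Dnm1, dynamin, 0.15, Clcn2 0.21 and Tspo -0.54.

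Of the 81 tested genes of these lists 5 passed in the relation to Slc17a7, where 2.39% of all genes did. Slc38a1, a glutamine transporter of GABA neurons, fell with Slc17a7 at -0.46 (limma adjusted p = 0.0224), as did Maob, monoamine oxidase B of astrocytes, at -0.44 (limma adjusted p = 0.0422). Car7, a neuronal carbonic anhydrase, rose at 1.38 (limma adjusted p = 0.0123), as did the peptides Npy at 0.92 (limma adjusted p = 0.0155) and Cck at 0.78 (limma adjusted p = 0.0156). Of 18 tested genes of glutamine and glutamate supply 15 had slopes below 0, with a median of -0.13. The scaffold list (19 tested), the GABA-B effectors (13 tested) and the neurosteroid list (3 tested) had no gene called in this relation, with medians of -0.02, -0.02 and -0.08.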

How the data were processed

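Hypothalamus RNA of 24 mice (3 females and 3 males per diet, 1 animal per library) was sequenced from stranded libraries, per the labels' protocols. The authors deposited FPKM per gene symbol. Per the submitters' processing notes, the tools were TopHat2 2.0.14 and StringTie 1.2.4 and the build GRCm38. The annotation, the counting rule and any use of strand were not given in the sources used here. Beside FPKM, the deposited table holds each animal's BCAA intake, a Pearson coefficient (a score between FPKM and intake) and its p-value, both made by the authors. FPKM carry no read counts, so depth is unknown and precision rests on the spread between animals.

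Values were taken as log2(FPKM + 0.5), which understates changes of low genes, for the 13806 genes that averaged 1 FPKM or more. Models with 8 diet and sex group means were fitted in limma 3.58.1 (R 4.3.3) with an intensity trend and robust variance, two-sided, and p-values were adjusted by Benjamini-Hochberg over all genes at a threshold of 0.05. The relation to Slc17a7 used the 21 libraries with at least 20 FPKM of Slc17a7. Correlations between genes used 100000 permutations within groups (Python 3.11.15, numpy 2.4.6, scipy 1.17.1; figures with matplotlib 3.10.9). The fit was tested on simulated data. No sample columns were left unmapped.

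The members and lists were chosen with earlier results of these data known. All 25 members are named. From the other lists are named the genes that passed over all genes and, in BCAA200 against BCAA20 and against BCAA100, the gene with the lowest p of each list, except for an item that is not reported here. Alternatives were other pseudocounts (0.1 and 1), no filter or one at 5 FPKM, quantile normalization, array weights, leaving out single or doubted libraries, the compared groups alone, Slc17a7 as a covariate, a replicate block, and intake on a linear scale.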

Additional observations from a re-analysis of the deposited data

Results flagged for a closer look

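Of 84 gene and diet sets of 6 libraries, 8 held a library far from the other 5, where about 4.2 would be flagged by chance at 1 in 20. BCAA50 female 1, a library with low Slc17a7 and a high sum of thalamus markers, was far above the others of its diet in 3 genes. It had Slc6a11 at 181 FPKM (next 88.4), Gabra4 at 18.9 FPKM (next 13.2) and Gabrg1 at 9.04 FPKM (next 6.01). BCAA20 male 5 stood apart in Gabrd, at 24.8 FPKM (next 15.9), and in Gabra2, at 11.9 FPKM (next 15.8). The other single libraries were BCAA20 female 3 for Gad1 at 144 FPKM (next 110), BCAA50 male 6 for Gabra3 at 34.8 FPKM (next 44.3) and BCAA200 female 2 for Slc6a13, a transporter of the meninges, at 7.004 FPKM (next 3.31).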

How the results depend on the processing

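None of the 21 genes was called in any diet, sex or intake comparison under any alternative run. The replicate numbers did not pair the libraries (6 of 36 correlations between libraries of the same number were over 0.1), and the fit with the replicate block called 0 of the 21 in each diet comparison. At an unadjusted p under 0.05 it had 8, 2 and 3 genes in BCAA200, BCAA50 and BCAA20 against BCAA100. Single left-out libraries moved these counts between 4 and 10, 2 and 7, and 2 and 6 in that order. For these alternative fits the share of all genes at that p was not counted. In the relation to Slc17a7, the 3 genes called became 1 with no filter on low values and 1 with array weights, 2 with quantile normalization and 2 without the doubted libraries, and ranged from 1 to 4 when single libraries were left out, with 1 in 14 of 21 such fits. With all 24 libraries 3 of the 21 were called (Slc6a11, Abat and Gabrg1), in a fit that called 1773 of all 13805 genes. The slopes were then -0.28 for Slc6a11, -0.14 for Abat and -0.08 for Aldh5a1, and those of Gabra4 (-0.027) and Gad1 (0.037) reversed in sign. The correlation of Gphn and Nlgn2, near 0, was -0.134 without the doubted libraries, -0.00967 without the 2 farthest libraries and -0.0295 with Slc17a7 fitted, and that of Slc6a11 and Slc6a13 was 0.0861 with Slc17a7 fitted. The cause was not tested for these. With 6 libraries a diet and unknown depth, the most variable genes, Gabrq and Gabre, could not be bounded closely.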
